A study of Mus musculus with 7 samples.

Results

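The genes described here are 10 transcription factors that set up the oligodendrocyte lineage or turn on its myelin genes: Olig1, Olig2, Sox10, Sox8, Nkx2-2, Nkx6-2, Myrf, Zfp488, Tcf7l2 and Zfp536. They were chosen by name, with earlier results of these data known, and each of the 10 symbols had 1 row among the 56941 rows of the deposited table. RNA sequencing was done on fresh cerebral cortex from mice at postnatal day 7, in 3 samples labelled P213L and 4 samples labelled wild type (WT). The P213L mice carry the P213L variant of Hnrnph2, a gene that encodes an RNA-binding protein acting in splicing, and WT mice carry the unaltered gene. Strain, sex, zygosity and litter are not in the labels, and neither is whether each sample is its own mouse. The spread behind every p-value is thus that among the libraries, which may be technical. The tissue label fits its markers, with summed levels of a list of 12 excitatory cortical neuron genes at 3250 to 3568 transcripts per 1000000 (TPM) in P213L and 3614 to 3881 TPM in WT. Of these sums, the gene Nrgn alone held 1550 to 1710 TPM in P213L and 1776 to 2593 TPM in WT.

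Oligodendrocytes arise from precursor cells that divide, leave the cell cycle and then wrap axons in myelin. Olig2 commits cells to the lineage and turns on Sox10, and Sox10 and Olig2 together prepare the Myrf gene. Myrf, made as a membrane protein that cuts itself to release its DNA-binding part, then acts with Sox10 on the genes of the myelin sheath. In the mouse cortex this step is at its start in the first postnatal week. Bulk tissue was measured, in which fewer cells of a type and less RNA per cell cannot be told apart.

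Among these factors are 2 pairs of close relatives, Olig1 with Olig2 (basic helix-loop-helix proteins) and Sox10 with Sox8 (proteins with an HMG box). Their most alike stretches of coding sequence are shown because they mark the part that makes each pair a pair, and because reads from a shared stretch could be assigned to either gene. The stretches are 90 bases each, in frame, from GENCODE vM21 transcripts on mm10, printed 5′ to 3′ on the coding strand, with capitals at the bases that differ within the pair.
Olig1 (chr16:91270147-91270236, plus strand): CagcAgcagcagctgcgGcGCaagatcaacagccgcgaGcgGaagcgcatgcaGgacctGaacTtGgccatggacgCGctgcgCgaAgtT
Olig2 (chr16:91226712-91226801, plus strand): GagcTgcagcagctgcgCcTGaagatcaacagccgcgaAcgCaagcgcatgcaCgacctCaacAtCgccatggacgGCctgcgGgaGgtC
Sox10 (chr15:79163309-79163398, minus strand): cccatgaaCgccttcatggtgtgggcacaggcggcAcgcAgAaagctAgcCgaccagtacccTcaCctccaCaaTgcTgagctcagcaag
Sox8 (chr17:25570130-25570219, minus strand): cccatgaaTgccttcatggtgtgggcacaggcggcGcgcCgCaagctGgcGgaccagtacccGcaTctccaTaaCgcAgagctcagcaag
The Olig1 and Olig2 stretches each lie within 1 exon, code for part of the basic helix-loop-helix region and share 74 of 90 bases (82.2%). The Sox10 and Sox8 stretches code for part of the HMG box and share 79 of 90 bases (87.8%). The longest run of identical bases anywhere in the coding sequences is 17 for Olig1 and Olig2 and 26 for Sox10 and Sox8. Within the coding sequences, a read longer than that run cannot match both genes of the pair without a mismatch. How reads that match both genes of a pair were counted is not given in the sources used here.

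WT replicate 3 stands apart from the other libraries and bears on most of the results. Its correlation with the other 6 libraries over tested genes was 0.943 to 0.949, while each of those 6 reached 0.990 to 0.992 with its closest partner. In it 28367 rows had a value above 0, against 31387 to 32526 rows in the other 6 libraries. Depth, estimated from the step between low values, was 71.2 to 79.4 M counted units (M, 1000000) in P213L, 57.2 M in WT replicate 3 and 66.4 to 72.5 M in the other WT libraries. Fold changes of most factors are therefore given with and without it. Many values of other named genes are given with all samples only, and they can depend on that library.

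No lineage factor passed the test between P213L and WT. The test was limma on log2(TPM + 0.5) across the 17582 genes that averaged 1 TPM or more, with Benjamini-Hochberg adjustment over all of them. It called 0 genes in total (0% of those tested), and 657 genes (3.74%) had an unadjusted p under 0.05, none of them among the 9 lineage factors that were tested. Of the 657, 415 were higher in P213L (63.2%), a share that scaling moved to 52.0% (median of ratios) or 49.4% (quantiles). Nkx6-2 was below the 1 TPM filter over all 7 samples and was not tested there. With the values themselves, Olig2 was the 1 factor of 10 whose groups did not overlap, as against 8.69% of all tested genes, and its P213L samples all lay above the WT samples. For Myrf, every P213L value was lower than 3 of the 4 WT values. The median log2 fold change (P213L over WT) of the 10 factors was 0.07, with 7 positive and 3 negative values, and the median over all tested genes was also 0.07. Of all tested genes, 11144 were higher in P213L and 6438 lower. Without WT replicate 3 the medians were -0.02 for the 10 factors and -0.001 for all genes.

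**Figure D1:**
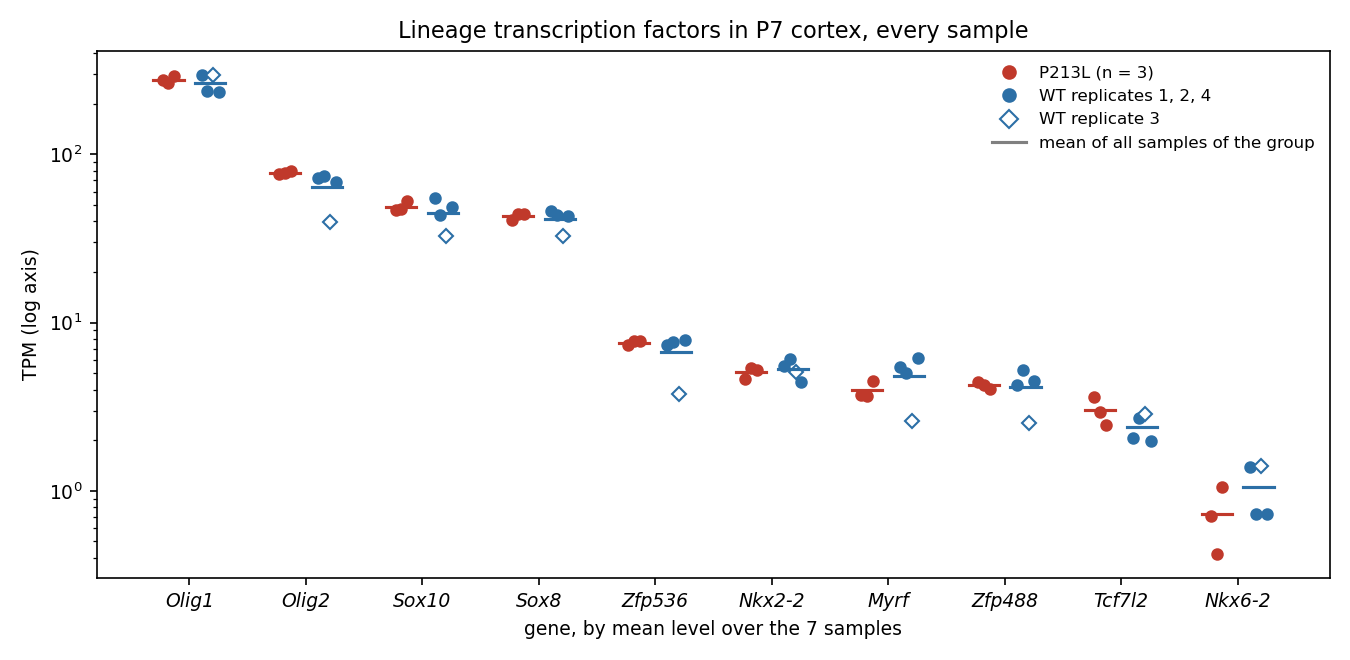
TPM (log axis) of the 10 lineage transcription factors in every sample, red for the 3 P213L samples and blue for the 4 WT samples, with lines at the group means and WT replicate 3 as an open diamond. Levels span from Olig1 at 235 to 297 TPM down to Nkx6-2 at 0.422 to 1.40 TPM, and WT replicate 3 lies below all other samples for Olig2, Sox10, Sox8, Zfp536, Myrf and Zfp488.

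The order of the levels was much the same in every sample. TPM is scaled by gene length, so levels can be set side by side between genes. Olig1 stood highest in 7 of 7 samples, followed by Olig2 in 7 of 7. Sox10 exceeded Sox8 in 6 of 7 samples, though their values overlapped, and both exceeded Zfp536 in 7 of 7. Zfp536 was above Nkx2-2, and Nkx2-2 above Myrf, in 6 of 7 samples each. Myrf exceeded Zfp488 in 1 of 3 P213L samples and 3 of 4 WT samples, so the order of these neighbours was not stable. Zfp488 exceeded Tcf7l2 in 6 of 7 samples, and Tcf7l2 exceeded Nkx6-2 in 7 of 7. In WT replicate 3 Tcf7l2 stood above both Myrf and Zfp488.

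Olig2, which commits progenitors to the oligodendrocyte fate (chromosome 16, 91225457 to 91228677, plus strand), stood at 76.4, 77.0 and 80.1 TPM in P213L, against 72.0, 74.4, 39.4 and 68.9 TPM in WT. All P213L values lay above all WT values, by a narrow margin over WT replicates 1, 2 and 4 and a wide one over replicate 3. The means were 77.8 ± 1.94 TPM in P213L and 63.7 ± 16.3 TPM in WT (SD, n = 3 and 4), with a log2 fold change of 0.33 ± 0.22 (SE; limma adjusted p = 0.827). Among all tested genes, 5.94% had every P213L value above every WT value. Without WT replicate 3 the fold change of Olig2 was 0.12 ± 0.06 on the log2 scale (SE; limma adjusted p = 0.595, unadjusted p = 0.0727), and the WT mean was 71.8 ± 2.75 TPM.

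Olig2 is also made in progenitors and some astrocyte precursors. The 15 progenitor markers summed to 1201 to 1303 TPM in P213L and 995 to 1691 TPM in WT, with the highest sum in WT replicate 3, and 11 of the 14 tested were higher in P213L. Of all 17582 tested genes, 11144 were higher. Pax6, a progenitor factor, had a log2 fold change of 0.30 ± 0.16, Nes of 0.31 ± 0.15 and the interneuron progenitor gene Dlx2 of 0.28 ± 0.12 (SE; adjusted p = 0.827 each in limma). Without WT replicate 3, Pax6, Nes and Dlx2 had 0.19, 0.22 and 0.25. The 12 astrocyte genes summed to 1255 to 1326 TPM in P213L, against 1060 TPM in WT replicate 3 and 1365 to 1563 TPM in the other WT libraries. Their median log2 fold change was 0.005 with all samples and -0.15 without WT replicate 3. None of these markers was under 0.1 TPM in all samples, and their part in the level of Olig2 was not tested.

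Olig1, the neighbour of Olig2 on chromosome 16 (91269772 to 91271933, plus strand), acts later, in maturation and repair of myelin. It was at 274.6, 265.0 and 292.7 TPM in P213L, against 295.2, 239.0, 297.3 and 234.8 TPM in WT. The P213L values lay inside the WT range, with a log2 fold change of 0.07 ± 0.12 (SE; limma adjusted p = 0.871), and 0.12 ± 0.10 without WT replicate 3. WT replicate 3, where Olig2 was lowest, had the highest Olig1 value of the 7 samples. With median-of-ratios scaling the Olig1 fold change was -0.02, so its direction depends on the scaling.

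Sox10 (chromosome 15, 79154908 to 79165240, minus strand) acts throughout the lineage and drives Myrf and myelin genes. It stood at 46.4, 47.5 and 52.6 TPM in P213L, against 54.9, 43.8, 32.5 and 48.4 TPM in WT. Apart from the low WT replicate 3, both groups covered a similar range. On the log2 scale Sox10 differed by 0.14 ± 0.18 (SE; limma adjusted p = 0.832), and -0.002 ± 0.09 without WT replicate 3. Sox8 (chromosome 17, 25565892 to 25570686, minus strand), which overlaps with Sox10 in function, was at 40.9, 44.3 and 44.1 TPM in P213L, against 46.2, 43.7, 32.7 and 43.0 TPM in WT. Its log2 fold change was 0.07 ± 0.14 with all samples (SE; limma adjusted p = 0.882), and it was -0.04 ± 0.06 without WT replicate 3 and -0.02 with median-of-ratios scaling.

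Nkx2-2 (chromosome 2, 147177546 to 147194243, minus strand) is a homeodomain repressor that helps precursors leave the precursor state. It was at 4.65, 5.37 and 5.23 TPM in P213L, against 5.55, 6.07, 5.08 and 4.42 TPM in WT. The groups overlapped, and WT replicate 3 was not apart here. On the log2 scale the difference was -0.04 ± 0.14 (SE; limma adjusted p = 0.925), and its sign turned when P213L replicate 1 (0.01) or WT replicate 2 (0.02) was left out. The antisense gene Nkx2-2os on the opposite strand stood at 0.296 to 0.573 TPM in P213L and 0.196 to 0.506 TPM in WT. The library kit keeps strand, but whether the counting used it is not given in the sources used here, so part of either value could belong to the other gene.

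Myrf is the late factor that switches on the program of the myelin sheath (chromosome 19, 10208272 to 10240748, minus strand). It stood at 3.71, 3.68 and 4.51 TPM in P213L, against 5.43, 5.01, 2.58 and 6.20 TPM in WT. All P213L values were below WT replicates 1, 2 and 4, while WT replicate 3 was the lowest of all 7 samples. The means were 3.97 ± 0.468 TPM in P213L and 4.81 ± 1.56 TPM in WT (SD, n = 3 and 4), with a log2 fold change of -0.20 ± 0.27 (SE; limma adjusted p = 0.840). Without WT replicate 3 the WT mean was 5.55 ± 0.605 TPM and the log2 fold change -0.44 ± 0.12 (SE; limma adjusted p = 0.505, unadjusted p = 0.00809). It was then the only tested member with an unadjusted p under 0.05, where 8.65% of the 17712 genes tested had one. All P213L values below those 3 WT values were found for 6.89% of the tested genes.

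Zfp488 (chromosome 14, 33967070 to 33978764, minus strand) encodes a zinc finger protein that works with Olig2 in promoting differentiation. It was at 4.44, 4.23 and 4.03 TPM in P213L, against 4.25, 5.20, 2.54 and 4.52 TPM in WT. The P213L values lay inside the WT range. On the log2 scale Zfp488 differed by 0.07 ± 0.22 (SE; limma adjusted p = 0.921), and it was -0.12 ± 0.11 without WT replicate 3 and -0.002 with median-of-ratios scaling, so no direction can be given.

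Nkx6-2 (chromosome 7, 139579376 to 139582797, minus strand) is a homeodomain factor of mature oligodendrocytes, where it is needed for the contact of myelin with the axon. It was the scarcest of the 10, at 0.713, 0.422 and 1.05 TPM in P213L, against 1.38, 0.732, 1.40 and 0.726 TPM in WT. The groups overlapped. These levels rest on an estimated 15 to 42 counted units in P213L and 24 to 50 in WT, so counting error alone is large. With the filter at a mean of 0.5 TPM it differed by -0.34 ± 0.27 on the log2 scale (SE; limma adjusted p = 0.835), and -0.24 without WT replicate 3. Without P213L replicate 2, the sample with the lowest value, its mean passed 1 TPM and the difference was -0.15. Its exons overlap those of Inpp5a on the opposite strand, a gene at 23.4 to 25.7 TPM in P213L and 18.9 to 27.4 TPM in WT, and reads of the pair cannot be told apart if strand was not used.

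Tcf7l2 (chromosome 19, 55741820 to 55933654, plus strand) encodes an HMG box protein that carries Wnt signals to DNA and appears briefly in newly formed oligodendrocytes. It was at 3.60, 2.96 and 2.46 TPM in P213L, against 2.06, 2.71, 2.86 and 1.99 TPM in WT. Only P213L replicates 1 and 2 were above all WT samples. On the log2 scale Tcf7l2 differed by 0.27 ± 0.19 (SE; limma adjusted p = 0.827), and 0.35 ± 0.17 without WT replicate 3 (SE; limma adjusted p = 0.597).

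Tcf7l2 is also strongly expressed by neurons of the thalamus, a region below the cortex. The 14 thalamic marker genes summed to 377 to 385 TPM in P213L and 350 to 372 TPM in WT, so the groups did not overlap, and 10 of the 13 tested were higher in P213L, with a median log2 fold change of 0.20, and 0.10 without WT replicate 3. The smallest p-values were those of Zic1 (log2 fold change 0.50 ± 0.15), Zic4 (0.53 ± 0.23) and Lhx9 (0.43 ± 0.20), each with an adjusted p of 0.827 in limma, and in these 3 of the 13 every P213L value was above every WT value, against 5.94% of all tested genes. They had 0.41, 0.38 and 0.35 without WT replicate 3. Gbx2, a defining thalamic factor below the filter, was at 0.554 to 0.594 TPM in P213L and 0.185 to 1.08 TPM in WT. Zic1 and Zic4 are also made in meningeal cells, and the 8 meningeal genes summed to 157.7 to 223.4 TPM in P213L, against 87.9 TPM in WT replicate 3 and 125.0 to 166.2 TPM in the other WT libraries, with 7 of 8 higher. Their median log2 fold change was 0.42, and 0.22 without WT replicate 3. In that list Foxc1 had a log2 fold change of 0.35 ± 0.12, Slc6a13 of 0.60 ± 0.23 and Col1a1 of 0.81 ± 0.35 (SE; limma adjusted p = 0.827 each), and without WT replicate 3 they had 0.28, 0.41 and 0.54. Beside the counts of higher genes in both lists, 11144 of all 17582 tested genes were higher. The part of thalamic and meningeal cells in the value of Tcf7l2 was not tested.

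Zfp536 (chromosome 7, 37472135 to 37773641, minus strand) encodes a zinc finger protein present in oligodendrocytes and in developing neurons, where it holds back differentiation. It was at 7.33, 7.73 and 7.78 TPM in P213L, against 7.32, 7.65, 3.77 and 7.87 TPM in WT. Outside WT replicate 3 all values lay within a narrow band. The log2 fold change was 0.23 ± 0.24 with all samples (SE; limma adjusted p = 0.827) and -6.4e-04 ± 0.08 without that library.

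**Figure D2:**
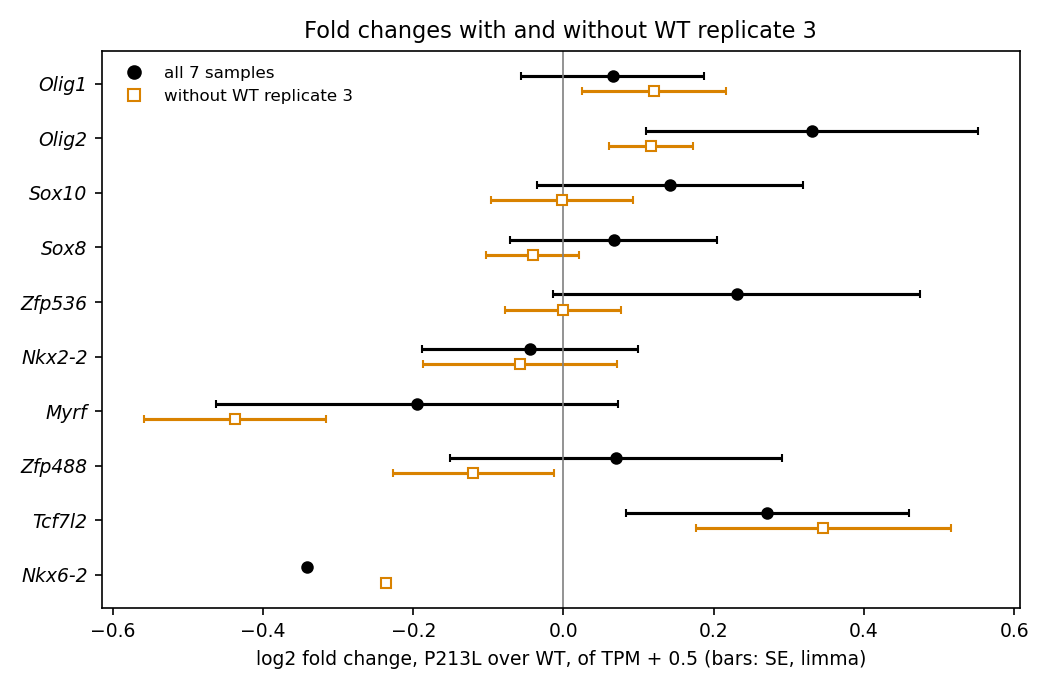
Log2 fold change, P213L over WT, of TPM + 0.5 for each factor, with all 7 samples (black circles) and without WT replicate 3 (open orange squares); bars are the SE from limma, and Nkx6-2, under the 1 TPM filter, has none. Leaving out the library brings Sox10 and Zfp536 to about 0 and moves Myrf to -0.44, and Tcf7l2 to 0.35.

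WT replicate 3 did not lower all factors alike. Relative to the mean of the other 3 WT libraries, it held 46.6% of Myrf, 49.6% of Zfp536, 54.5% of Zfp488, 54.9% of Olig2, 66.4% of Sox10 and 73.8% of Sox8. Nkx2-2 was at 95.1%, Olig1 at 116%, Tcf7l2 at 127% and Nkx6-2 at 148%. The lengths of the combined exons were 8562 bases for Myrf, 9218 for Zfp536, 4301 for Zfp488, 2530 for Olig2, 3051 for Sox10 and 3118 for Sox8. They were 2875 bases for Nkx2-2, 2162 for Olig1, 8775 for Tcf7l2 and 1907 for Nkx6-2. The part of length in these levels was not tested.

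Differences between genes within a sample do not move with the scaling of the library, so Myrf was also set against the factors upstream of it. The log2 level of Myrf less that of Olig2 was -4.19, -4.21 and -4.01 in P213L, against -3.61, -3.77, -3.69 and -3.37 in WT. The groups did not overlap, and WT replicate 3 lay among the other WT samples, since Myrf and Olig2 were both low in it. The difference averaged -4.14 ± 0.11 in P213L and -3.61 ± 0.17 in WT (SD, n = 3 and 4). P213L thus had 0.694 times as much Myrf per Olig2 as WT, a difference of -0.53 on the log2 scale, and -0.55 without WT replicate 3. The exact permutation p was 0.0286 (two-sided), the smallest that 35 splits of 7 samples can give, and 0.0857 adjusted over the 6 differences computed, so it did not pass adjustment. The lower Myrf and the slightly higher Olig2 both enter this difference, and Olig2 alone already separated the groups. It was chosen with earlier results of these data known, so its p is no independent support. How many other pairs of genes separate the groups was not computed.

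Myrf set against Sox10 differed in the same direction without separating the groups. The log2 difference was -3.48, -3.52 and -3.41 in P213L, against -3.22, -3.01, -3.42 and -2.87 in WT. WT replicate 3 lay among the P213L values and the other WT samples lay above them. The group difference was -0.34 (exact permutation p = 0.0857, 0.171 adjusted over the 6), and -0.43 without WT replicate 3.

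The proportions within the pairs of paralogs overlapped between the groups. Sox8 less Sox10 was -0.18, -0.10 and -0.25 in P213L, against -0.25, -0.002, 0.008 and -0.17 in WT, with a group difference of -0.08 (exact permutation p = 0.400, 0.600 adjusted). Olig1 less Olig2 was 1.84, 1.78 and 1.86 in P213L, against 2.03, 1.68, 2.90 and 1.76 in WT, with a group difference of -0.27 (exact permutation p = 0.686, 0.800 adjusted). WT replicate 3 stood apart for Olig1 less Olig2, and without it the group difference was 0.004.

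Myrf was then set against myelin genes it is known to act on, Mbp and Mobp. Mbp, which joins the layers of the sheath, less Myrf was 4.10, 4.07 and 3.99 in P213L, against 4.09, 4.07, 5.20 and 3.98 in WT. Apart from WT replicate 3 the values were nearly the same in all samples, so Mbp and Myrf differed between the groups to a similar degree there. The group difference was -0.28 with all samples (exact permutation p = 0.800, 0.800 adjusted) and 0.003 without that library. Mobp, another compact myelin protein, less Myrf was -0.12, 0.10 and 0.20 in P213L, against 0.73, 0.78, 1.65 and 0.66 in WT. Here the groups did not overlap, and Mobp was lower in P213L than its proportion to Myrf in WT would give, with a difference of -0.90 (exact permutation p = 0.0286, 0.0857 adjusted) and -0.67 without WT replicate 3. All P213L values of Mobp alone were already below all WT values (log2 fold change -1.09 ± 0.16, SE). The difference was chosen with earlier results of these data known, so this p is no independent support.

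**Figure D3:**
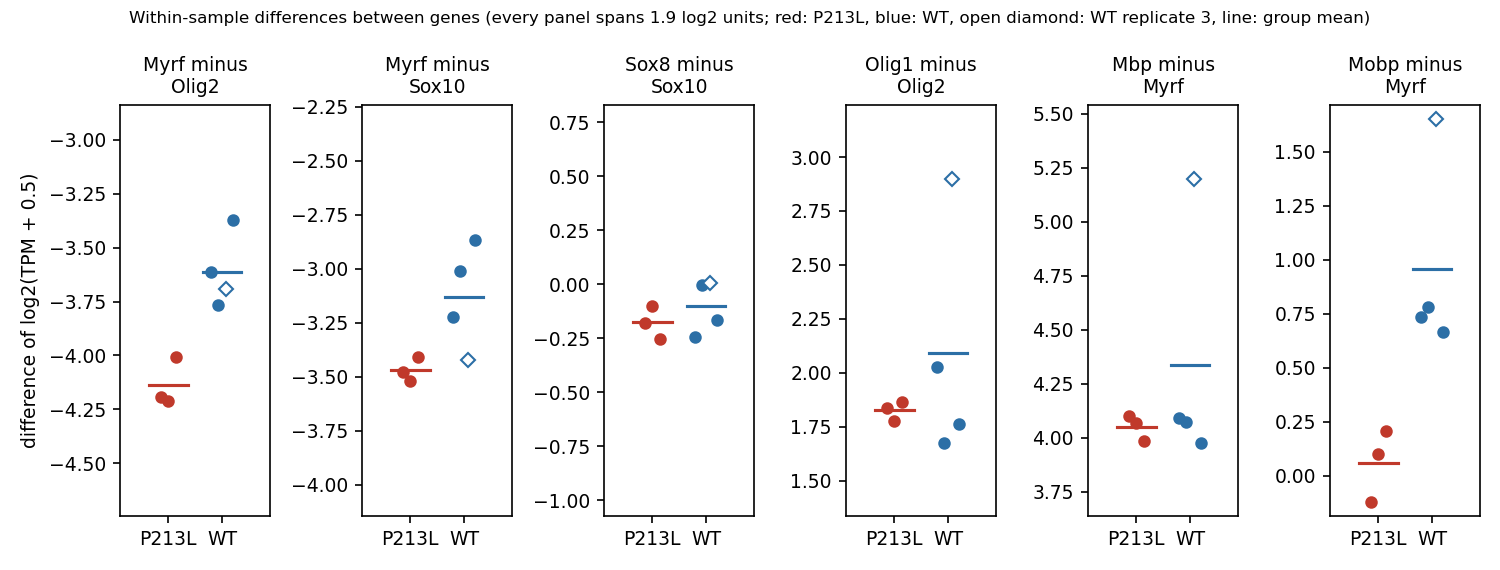
Difference of log2(TPM + 0.5) between 2 genes of the same sample, in 6 panels of equal span, red for P213L (n = 3) and blue for WT (n = 4), with lines at group means and WT replicate 3 as an open diamond. Myrf minus Olig2 and Mobp minus Myrf separate the groups, and WT replicate 3 lies far from the other WT samples for Olig1 minus Olig2 and both myelin genes minus Myrf.

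The genes around these factors were described by lists, none of which had a member past adjustment in limma (0% of all tested genes were called). Counts of direction stand beside those of all 17582 tested genes, of which 11144 were higher in P213L and 6438 lower. A list of 30 genes known as targets of Myrf or Sox10 had 26 tested members, 16 lower and 10 higher in P213L, with a median log2 fold change of -0.05, against 0.07 for all genes, and -0.13 without WT replicate 3. At an unadjusted p under 0.05 there were 9 lower and 0 higher, where 1.38% of all tested genes were lower and 2.36% higher. Mag, an adhesion protein facing the axon, had a log2 fold change of -0.63 ± 0.15. Cnp, an enzyme of uncompacted myelin, had -0.22 ± 0.09 and Mog, on the outer face of myelin, 0.08 ± 0.14. Mbp and Mobp had -0.48 ± 0.11 and -1.09 ± 0.16 (SE; limma adjusted p from 0.597 to 0.861 over these genes). The myelin genes of the list were known from earlier results of these data, so the list is no independent support for a direction.

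Precursor and early markers did not follow 1 direction, with 5 of 10 higher and 5 lower in P213L and a median log2 fold change of 0.008, and -0.16 without WT replicate 3. Pdgfra, the receptor that marks precursors and is repressed by Nkx2-2, was at 49.0 ± 0.935 TPM in P213L and 50.7 ± 11.5 TPM in WT (SD, n = 3 and 4), and Cspg4 at 13.5 ± 0.769 and 12.6 ± 3.39 TPM. Without WT replicate 3 the log2 fold change of Pdgfra was -0.19, against -0.02 with all samples, and that of Cspg4 was -0.08, against 0.14. The members with the smallest p were markers of cells leaving the precursor state, Enpp6 (-0.43 ± 0.17), Bcas1 (-0.32 ± 0.12) and Neu4 (-0.22 ± 0.12), in each of which all P213L values were below all WT values. Their adjusted p was 0.827 in limma. All P213L values below all WT values occurred in 2.75% of the tested genes.

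Other activators and partners of the lineage had 30 tested members, 23 higher and 7 lower in P213L, with a median log2 fold change of 0.17, and 0.01 without WT replicate 3. At an unadjusted p under 0.05 in limma, 2 were higher and 0 lower, where 2.36% of all tested genes were higher and 1.38% lower. The 2 were Carhsp1 (0.31 ± 0.10) and Nfatc4 (0.43 ± 0.17), which encodes a calcium-regulated partner of Sox10. Without WT replicate 3, Carhsp1 had 0.30 and Nfatc4 0.34. Sox3, a factor of neural progenitors, had 0.38 ± 0.16 with all samples. Sox9, which precedes Sox10, had 0.27 ± 0.18, and Tcf4, a dimer partner of Olig proteins, -0.10 ± 0.16 (SE; limma adjusted p from 0.827 to 0.856). Sox9 was at 0.12 and Tcf4 at -0.21 without WT replicate 3.

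Genes that hold back differentiation had 26 tested members, 18 higher and 8 lower in P213L, with a median of 0.13, and 0.03 without WT replicate 3. None had an unadjusted p under 0.05 in limma, where 3.74% of all tested genes did. Sox11 (0.36 ± 0.16), Sox4 (0.42 ± 0.20) and Gpr37 (0.29 ± 0.13) had the smallest p. All P213L values lay above all WT values in these and in Id4, 4 of the 26, against 5.94% of all tested genes. Id2 and Id4, which bind the partners of Olig proteins, had -0.29 ± 0.17 and 0.14 ± 0.10, Hes5 of the Notch pathway 0.05 ± 0.23, and Sox5 and Sox6, which compete with Sox10 in precursors, 0.12 ± 0.29 and 0.15 ± 0.27 (SE; limma adjusted p from 0.827 to 0.943 over these genes). Without WT replicate 3 the values were -0.15 for Sox5, -0.10 for Sox6, 0.23 for Sox4, -0.16 for Id2 and 0.23 for Hes5. Sox11 was then at 0.26 and Gpr37 at 0.21. Chromatin partners had 23 tested members, 21 higher and 2 lower, with a median of 0.19, and 0.04 without WT replicate 3. Kat5 (0.28 ± 0.13), Ezh2 (0.20 ± 0.11) and Dnmt1 (0.39 ± 0.24) had the smallest p there, with an adjusted p of 0.827 in limma. Their values were 0.18, 0.17 and 0.16 without WT replicate 3.

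**Figure D4:**
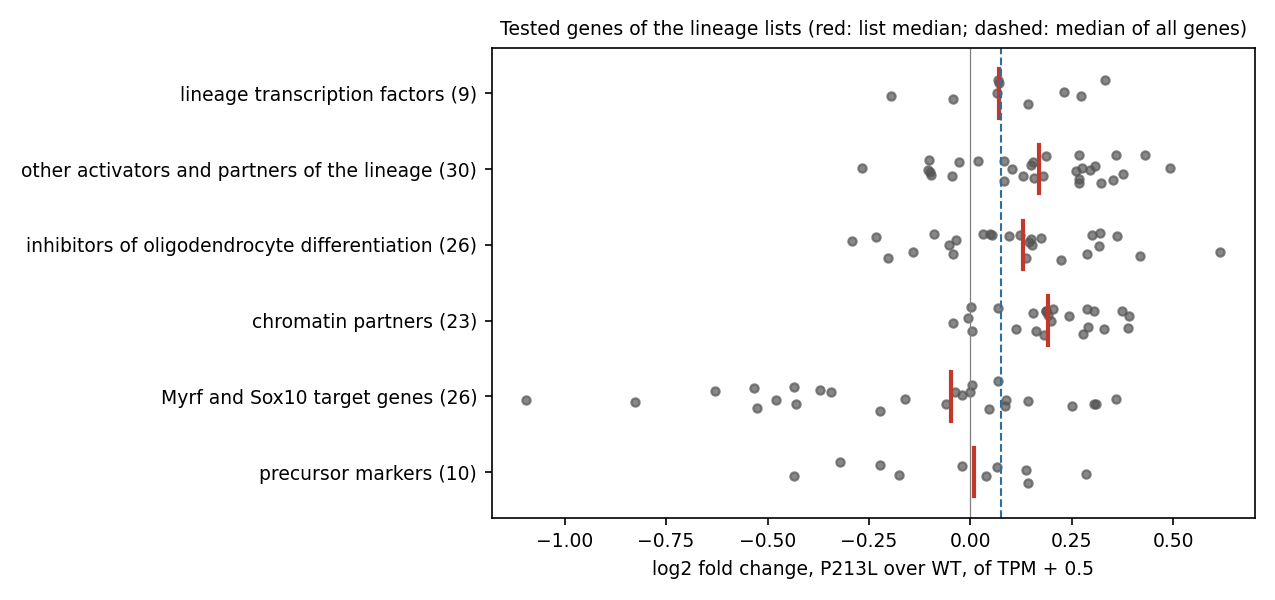
Log2 fold change, P213L over WT, of TPM + 0.5 for each tested gene of 6 lists (points, number tested in brackets), with the list median in red and the median of all tested genes, 0.07, as a dashed line. The 9 tested lineage factors sit around that line, while the target list reaches down to Mobp at -1.09.

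For Olig2 and Myrf, the genes with the most similar course over the 7 samples were looked up. The measure was the root mean square difference of mean-centred log2(TPM + 0.5), over 8396 named genes with an SD of at least 0.2. Closest to Olig2 were Mboat7 (0.0276), Slc26a1 (0.0352) and Foxred2 (0.0368), and closest to Myrf were Atp2a3 (0.0707), Lynx1 (0.111) and Fhip1a (0.123). The low value of WT replicate 3 weighs heavily in these courses.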

How the data were processed

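Polyadenylated RNA was made into strand-specific libraries after TRIzol extraction, per the labels' protocols. HISAT2, HTSeq and mm10 are named in the submitters' processing notes, without versions, annotation or gene lengths. The authors deposited TPM, a value scaled by gene length and library, and each column sums to 1000000. Because that total is fixed, a rise in a few abundant transcripts lowers the rest.

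Samples were grouped by title and columns by sample name. Values were tested as log2(TPM + 0.5) with limma 3.58.1 in R 4.3.3 (mean-variance trend, two-sided, threshold 0.05) for genes averaging 1 TPM or more. A fold change on that scale understates the change of low genes. Within-sample differences were compared by exact permutation over 35 splits. The fit was tested on simulated data. No count test was run. Depth was estimated by multiplying TPM by exon lengths of GENCODE vM21, which had a unique symbol for 85.9% of rows, and taking the most frequent low value as 1 unit. Low values fell within 0.05 units of a multiple of 0.5 units in 95.1 to 96.0% of cases. This is an estimate, and intervals from it would cover counting error only.

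The members, lists, differences and tests were chosen with earlier results of these data known. Named were all 10 factors, the 3 genes with the smallest p in each list and a fixed set of lineage genes, some of which are not reported here. Alternatives were other pseudocounts, filters, scalings and variance models, the replicate number as a block and each sample left out in turn. Replicate numbers were not treated as pairs in the main fit. Figures were drawn with matplotlib 3.10.9 in Python 3.11.15.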

Additional observations from a re-analysis of the deposited data

Results flagged for a closer look

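In the WT group, 30 measures (the 10 factors, the 6 within-sample differences and the 14 summed lists) were searched for 1 library lying far from its fellows, which chance gives in about 1 of 20. Such a library was found 8 times, and 7 times it was WT replicate 3. The 30 measures share libraries and in part genes, so the 8 are not separate draws to set against that rate. It was low for Olig2 at 39.4 TPM, against 68.9 to 74.4 TPM in the other WT samples, and for Zfp536 at 3.77 TPM, against 7.32 to 7.87 TPM. It was high for Mbp less Myrf at 5.20, against 3.98 to 4.09, and for Mobp less Myrf at 1.65, against 0.66 to 0.78. Its summed level was low for the activators and partners of the lineage at 1647 TPM, against 2266 to 2378 TPM, and for the chromatin partners at 1132 TPM, against 1504 to 1581 TPM. It was high for the interneuron genes at 2441 TPM, against 1570 to 1707 TPM. The other was WT replicate 2, where choroid plexus genes summed to 1243 TPM, against 4.63 to 7.41 TPM in the other WT samples.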

How the results depend on the processing

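Under the alternatives run, no factor passed adjustment in limma except with sample weights. With sample weights 3 factors passed, Olig1 (0.26), Olig2 (0.18) and Myrf (-0.41), among 3981 genes called (22.6%), with 6969 at an unadjusted p under 0.05, and 3 factors at that level. The weights were 6.90 for P213L replicate 3, 5.24 for WT replicate 4, 0.0431 for WT replicate 3 and 0.441 to 1.25 for the other libraries. The calls of that fit thus lean on P213L replicate 3 and WT replicate 4. In the weighted fit Nkx2-2 had 0.11, Zfp488 -0.15 and Zfp536 -0.00725. The number of genes at an unadjusted p under 0.05 was 657, and 1836 without a filter, 361 with a mean of at least 5 TPM and 269 to 1571 with each sample left out. The lowest was without P213L replicate 1, and it was 315 without P213L replicate 3, 391 without P213L replicate 2, 1571 without WT replicate 1 and 1532 without WT replicate 3. With each sample left out, 0 to 1 factors had such a p, Myrf without WT replicate 3, and 0 genes and 0 factors passed adjustment. The median of the 10 factors ran from -0.02 to 0.12 there.

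Signs turned for small values. With median-of-ratios scaling the log2 fold changes were -0.0192 for Olig1, -0.0165 for Sox8 and -0.00219 for Zfp488, and with quantile normalization -0.00868 for Sox8 and -0.0365 for Zfp488. That scaling moved the share of higher genes at an unadjusted p under 0.05 to 52.0%, against 63.2% in the TPM values, and quantile normalization to 49.4%. Leave-one-out values ran from -0.12 to 0.0197 for Nkx2-2, from -0.00247 to 0.25 for Sox10, from -0.0410 to 0.12 for Sox8, from -0.12 to 0.18 for Zfp488 and from -6.4e-04 to 0.32 for Zfp536. Olig2 (0.12 to 0.42), Tcf7l2 (0.15 to 0.39) and Myrf (-0.44 to -0.06) kept their sign. Left out in turn, the within-sample differences ran from -0.59 to -0.45 for Myrf less Olig2, from -0.997 to -0.67 for Mobp less Myrf, from -0.40 to 0.00417 for Olig1 less Olig2 and from -0.40 to 0.00312 for Mbp less Myrf. With 6 samples the smallest exact p is 0.0667 or more, so none can pass 0.05. Replicates of the same number had correlated deviations of 0.13, 0.17 and -0.10, against -0.24 to 0.12 for different numbers. These few values do not settle whether the numbers pair the samples. With the replicate block, in which WT replicate 4 has no partner, 500 genes had an unadjusted p under 0.05 and 0 passed adjustment, and Olig2 and Myrf had 0.38 and -0.06. Adding the replicate block to median-of-ratios scaling put Olig1 at -0.10 and Sox8 at -0.0182. The share of higher genes was 48.1% when P213L replicate 2 was left out, 74.6% when WT replicate 1 was, and 53.2% with mitochondrial genes removed. The cause of these changes was not tested. Depth limits Nkx6-2 most among the 10.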

Other observations

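Levels of other cell types give the setting of these factors. The 10 microglial genes were all lower in P213L, where 6438 of all 17582 tested genes were lower. Their summed level was 312.9 to 322.7 TPM in P213L and 325.0 to 394.7 TPM in WT. At an unadjusted p under 0.05 in limma 3 of them were lower, against 1.38% of all tested genes. Siglech, Gpr34 and P2ry12 had log2 fold changes of -0.43 ± 0.14, -0.52 ± 0.20 and -0.55 ± 0.23 (SE; limma adjusted p = 0.827 each). Of the 12 astrocyte genes 6 were higher and 6 lower, and S100b had -0.53 ± 0.19, Aldoc -0.19 ± 0.10 and Gjb6 -0.30 ± 0.14. Interneuron genes were higher in 6 and lower in 6 of 12, with Vip at -0.53 ± 0.19, Dlx5 at 0.38 ± 0.16 and Calb1 at -0.31 ± 0.18. Excitatory neuron genes were higher in 11 of 12, where 11144 of all 17582 tested genes were, with Neurod2 at 0.23 ± 0.15, Fezf2 at 0.22 ± 0.20 and Nrgn, the exception, at -0.28 ± 0.15. All of these had an adjusted p of 0.827 in limma. The direction of the excitatory list rested on WT replicate 3, since its median was 0.15 with all samples and -0.04 without that library, and Fezf2 was then at 0.04 and Neurod2 at 0.12. The summed level of the list was 3250 to 3568 TPM in P213L, below the 3614 to 3881 TPM in WT. Nrgn alone held 1550 to 1710 TPM of it in P213L and 1776 to 2593 TPM in WT. Nrgn was the 1 lower gene of the list with all samples, and it was at -0.16 without WT replicate 3. In the other WT libraries the list summed to 3693 to 3881 TPM, still above P213L. The part of Nrgn in the lower sum was not tested. Without WT replicate 3, Calb1 was at -0.16, Vip at -0.40 and S100b at -0.37.

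Genes of Schwann cells, which use Sox10 in nerves, had 5 of 8 tested, 3 higher and 2 lower. Pmp22, Prx and Egr2 had log2 fold changes of -0.16 ± 0.13, 0.17 ± 0.15 and 0.14 ± 0.14. The choroid plexus list, with 5 of 8 tested and all 5 lower, followed WT replicate 2, with Ttr at -2.29 ± 2.44, Folr1 at -0.81 ± 0.65 and Kcnj13 at -0.20 ± 0.36 (SE; limma adjusted p from 0.827 to 0.866).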
